A study of Mus musculus with 6 samples.

Results

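Genes of the epithelial-mesenchymal transition (EMT) were followed in 4T1 cells with NFAT1 shRNA and with control shRNA. They were the repressor genes Snai1, Snai2, Zeb1, Zeb2 and Twist1, the epithelial regulators Ovol1, Esrp1 and Grhl2, and the marker genes Cdh1 and Vim. Every probe set annotated to exactly 1 of these symbols was kept, which gave 24 probe sets for 10 genes, of 45037 probe sets and 18193 genes in all. The 4T1 line is a mouse mammary carcinoma line that forms metastases. Its cells were transduced with a vector expressing an shRNA against NFAT1, the calcium-regulated transcription factor encoded by Nfatc2, or with a control shRNA vector, so that both groups carried a vector and went through 10 days of selection in culture. Each group held 3 arrays, made from 200 ng of total RNA per sample. The labels do not say whether the samples of a group came from separate transductions or cultures, nor how many shRNA sequences were used, so the p-values reflect no more than how far these samples differ from each other, possibly for technical reasons.

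EMT is the passage of epithelial cells to a motile, mesenchymal state. The SNAIL, ZEB and TWIST proteins drive it, and SNAIL and ZEB proteins bind E-box sequences and repress genes of cell junctions, above all Cdh1, which encodes E-cadherin. OVOL1, GRHL2 and the splicing factor ESRP1 maintain the epithelial state, and GRHL2 and the OVOL proteins oppose the ZEB genes. Vim encodes vimentin, the intermediate filament protein of mesenchymal cells, which many carcinoma lines also express.

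Promoter windows from RefSeq tables of build GRCm38.p6 are given for 4 of the 10 genes, Snai1, Zeb2, Twist1 and Vim. Member windows on 1 chromosome were left out of the search, so a gene missing here may still have a window. Each window runs from 250 bases before to 50 bases after an annotated transcription start. They are shown because E-boxes bound by SNAIL and ZEB proteins have the letters CAGGTG, which read CACCTG on the opposite strand. The other motif searched was GGAAAA, a longer form of the NFAT core GGAAA, which reads TTTTCC on the opposite strand. Sites with GGAAA and a different next base were not counted. Both motifs were searched on both strands, do not overlap each other, and are given in capitals. Snai1 lies at chr2:167537945-167538244 on the plus strand, and 1 of the 4 Zeb2 windows at chr2:45113204-45113503 on the minus strand. Twist1 lies at chr12:33957421-33957720 and Vim at chr2:13574061-13574360, both on the plus strand.
Snai1: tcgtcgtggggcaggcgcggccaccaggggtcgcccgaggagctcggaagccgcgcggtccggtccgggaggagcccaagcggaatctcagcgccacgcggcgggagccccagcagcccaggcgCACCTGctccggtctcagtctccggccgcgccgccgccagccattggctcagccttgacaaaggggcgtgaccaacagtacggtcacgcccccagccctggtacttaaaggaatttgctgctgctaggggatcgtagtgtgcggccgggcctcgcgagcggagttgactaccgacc
Zeb2: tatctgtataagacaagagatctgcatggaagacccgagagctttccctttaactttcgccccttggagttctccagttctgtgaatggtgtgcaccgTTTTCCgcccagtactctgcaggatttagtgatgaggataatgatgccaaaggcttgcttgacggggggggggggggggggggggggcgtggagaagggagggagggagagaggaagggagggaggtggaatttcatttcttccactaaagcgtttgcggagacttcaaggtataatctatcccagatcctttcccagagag
Twist1: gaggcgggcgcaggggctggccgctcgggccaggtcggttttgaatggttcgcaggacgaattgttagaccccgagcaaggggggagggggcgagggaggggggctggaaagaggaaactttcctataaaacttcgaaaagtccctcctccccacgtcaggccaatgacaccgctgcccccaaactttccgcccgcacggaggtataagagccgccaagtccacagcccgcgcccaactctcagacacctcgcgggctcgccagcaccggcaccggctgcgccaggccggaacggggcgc
Vim: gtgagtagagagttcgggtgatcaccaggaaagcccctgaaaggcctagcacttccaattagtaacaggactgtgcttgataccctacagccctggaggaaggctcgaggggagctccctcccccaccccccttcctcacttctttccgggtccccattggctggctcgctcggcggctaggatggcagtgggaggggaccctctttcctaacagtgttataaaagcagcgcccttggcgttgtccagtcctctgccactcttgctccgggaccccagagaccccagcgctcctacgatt
The Snai1 window held 1 E-box, which begins 126 bases before the start. The Zeb2 window shown held 1 GGAAAA site, 152 bases before its start, and the same site lies 126 bases before the start in another Zeb2 window. The remaining Zeb2 windows held neither set of letters. The Twist1 and Vim windows held neither CAGGTG nor GGAAAA, but both hold the shorter GGAAA. Of all 32851 windows of this length, 20.2% held the E-box and 23.4% held GGAAAA, and a match describes letters only.

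All values below are log2 RMA signals, and differences are NFAT1 shRNA minus control shRNA on the same log2 scale. Array medians ran from 5.42 to 5.48. RMA compresses differences at low signals, and signals of different probe sets cannot be set against each other. A probe set counted as changed when its adjusted p was under 0.05 in limma, fitted and adjusted over all probe sets. On that rule 90 probe sets of the whole table changed, 34 higher and 56 lower. The arrays were not equally alike within groups. NFAT1 shRNA 1 correlated across probe sets at 0.991 to 0.995 with the control arrays, against 0.986 and 0.985 with NFAT1 shRNA 2 and 3. Control 3 read between controls 1 and 2 for 251 of the 253 brighter probe sets (7 or more on a control array) on which the controls spread over 1 log2 unit or more. Leaving out NFAT1 shRNA 1 gave 5794 changed probe sets with limma, and leaving out control 3 gave 0, with 4251 at an unadjusted p under 0.05. How these arrays bear on the member values was measured by leaving them out, as given below. Of the 6 Nfatc2 probe sets, 0 changed with limma and 3 had an unadjusted p under 0.05, 2 lower and 1 higher. The most different, 1439205_at, read 5.15, 5.43 and 5.29 on the NFAT1 shRNA arrays, against 6.05, 6.18 and 5.91 on the control arrays, or 59.2% of control (limma adjusted p = 0.0707). Its groups did not overlap, at the smallest exact permutation p that 3 arrays against 3 can give (0.1, 2-sided). The probe set 1426032_at had a higher mean in NFAT1 shRNA cells (0.35, limma adjusted p = 0.251), so the probe sets of the targeted gene disagreed.

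The 4T1 cells of both groups had the readout of an epithelial line that also expresses vimentin and some other mesenchymal genes, such as Fn1 and S100a4. Of 27 mesenchymal genes measured, 13 lay above the array median on all 6 arrays. Below it on all 6 lay 12, among them Cdh2 and Col1a1. Probe sets of Cdh1, Esrp1, Twist1 and Vim, and 1 of the 4 of Grhl2, lay well above the array medians on all 6 arrays, while all probe sets of Snai2 and Zeb1 lay below them. None of the 24 probe sets changed between NFAT1 shRNA and control cells with limma (adjusted p from 0.291 to 0.986), where 0.200% of all probe sets changed. At an unadjusted p under 0.05, 4 of the 24 differed, 1 higher and 3 lower, beside 15.7% of all probe sets. The mean was higher for 12 of the 24 and lower for 12. Their median difference was 6.45e-05, and that of all probe sets 0.019. The differences ran from -0.49 to 0.48. The 95% interval of each of the 24 stayed within 1 log2 unit of 0, a 2-fold difference, and that of 14 within 0.5 units. In these bulk RNA samples, a change in the share of cells of a type and a change in RNA per cell cannot be told apart.

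**Figure D1:**
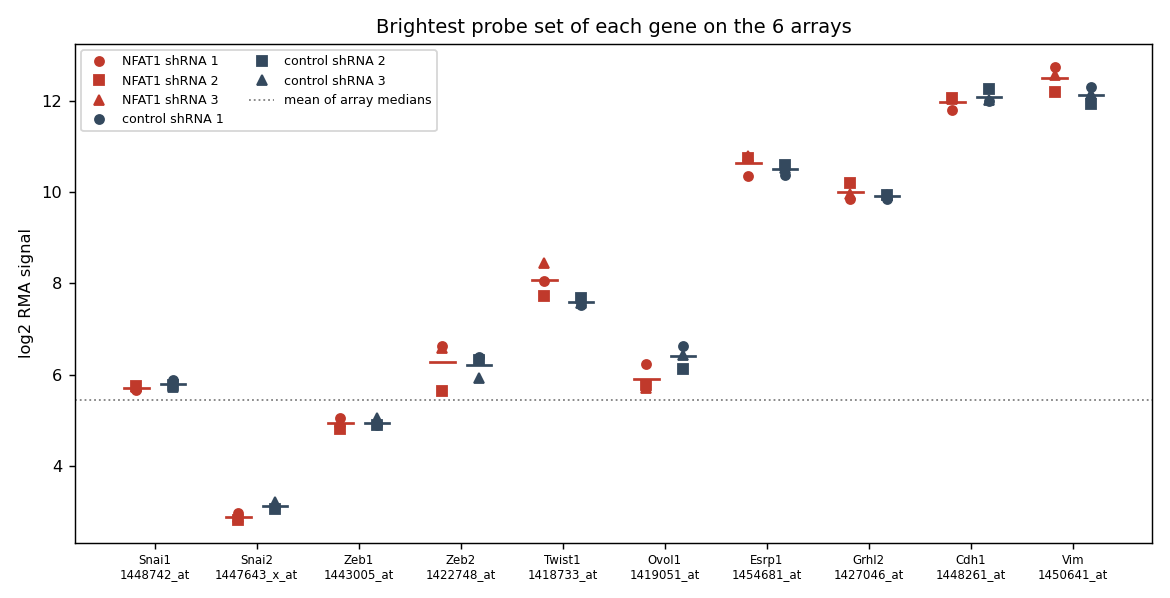
Log2 RMA signal (vertical axis) of the brightest probe set of each of the 10 genes on the 3 NFAT1 shRNA arrays (red, left) and the 3 control arrays (dark, right); symbols mark the replicate number, bars the group means and the dotted line the mean of the array medians. The groups lie close together for every gene, with Twist1 separated upward and Snai2 downward, both without passing the test; levels of different probe sets are not comparable.

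Among the SNAIL genes, the signals were low. Snai1, the zinc finger repressor that gives the family its name, read 5.67, 5.75 and 5.74 on the NFAT1 shRNA arrays, against 5.88, 5.77 and 5.73 on the control arrays. The groups overlapped, all 6 values lay slightly above the array medians, and the difference was -0.07 (95% interval -0.27 to 0.12; limma adjusted p = 0.680). It was -0.031 without control 1 and -0.11 without control 3. Snai2, which encodes SLUG, was read by 2 probe sets that lay below the first quartile of every array. On 1447643_x_at it had 2.98, 2.82 and 2.88 in NFAT1 shRNA cells, against 3.10, 3.05 and 3.21 in control cells. The NFAT1 shRNA arrays were all lower there (difference -0.23, limma adjusted p = 0.299), but the probe set name marks possible cross-hybridisation. The other probe set, 1418673_at, ran from 2.95 to 3.03 in NFAT1 shRNA cells and from 2.88 to 3.01 in control cells, with groups that overlapped (difference 0.03, limma adjusted p = 0.855). At these signals neither Snai2 probe set can show whether a transcript was present or differed.

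Zeb1 and Zeb2, the ZEB repressors of Cdh1, gave no difference beyond the spread between arrays. The brightest of the 4 Zeb1 probe sets, 1443005_at, read 5.06, 4.80 and 4.97 on the NFAT1 shRNA arrays, against 4.89, 4.89 and 5.05 on the control arrays. These values overlapped fully (difference -0.0046, 95% interval -0.24 to 0.24; limma adjusted p = 0.986). The other 3 Zeb1 probe sets differed by -0.11, -0.04 and 0.13, with adjusted p-values from 0.515 to 0.903, and 1420243_at lay below the first quartile of every array. Zeb2 on its brightest probe set, 1422748_at, had 6.64, 5.65 and 6.58 in NFAT1 shRNA cells, against 6.39, 6.33 and 5.94 in control cells. NFAT1 shRNA 2 was the lowest and NFAT1 shRNA 1 the highest of the 6 arrays. The same array, NFAT1 shRNA 2, was the lowest of all 6 on 4 of the 5 Zeb2 probe sets, 1458941_at being the exception. The 5 probe sets differed by -0.11 to 0.15, and none passed (limma adjusted p from 0.531 to 0.967). The interval for 1422748_at, -0.60 to 0.74, went with an SD of 0.56 over the NFAT1 shRNA arrays, against 0.24 over the control arrays. The sign of this difference turned without NFAT1 shRNA 1 (-0.11), without NFAT1 shRNA 3 (-0.076) and without control 3 (-0.070).

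Twist1, a basic helix-loop-helix factor of EMT, was the member with the highest difference. It read 8.06, 7.72 and 8.44 on the NFAT1 shRNA arrays, against 7.53, 7.69 and 7.57 on the control arrays. Every NFAT1 shRNA value lay above every control value, but NFAT1 shRNA 2 exceeded control 2 by only 0.025. The mean was 8.07 ± 0.36 in NFAT1 shRNA cells and 7.60 ± 0.08 in control cells (SD, n = 3 each), a difference of 0.48 (95% interval 0.05 to 0.91) that did not pass (limma adjusted p = 0.293). That corresponds to 1.39-fold, with bounds of 1.03-fold and 1.87-fold. Leaving out NFAT1 shRNA 3 brought it to 0.29 and leaving out NFAT1 shRNA 2 to 0.65, and it passed in none of the settings tried.

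Ovol1, a zinc finger repressor of mesenchymal genes, was the member with the lowest difference, and both of its probe sets gave the same size. On 1419051_at the signal was 6.24, 5.78 and 5.71 on the NFAT1 shRNA arrays, against 6.63, 6.13 and 6.44 on the control arrays. NFAT1 shRNA 1 lay above control 2 there, and the other NFAT1 shRNA arrays lay below all controls. On 1419052_at the signal was 4.12, 3.72 and 4.07 on the NFAT1 shRNA arrays, against 4.76, 4.13 and 4.47 on the control arrays. The groups did not overlap on this probe set, although NFAT1 shRNA 1 and control 2 nearly met, and all 6 values lay below the array medians. The differences were -0.49 for each, with 95% intervals of -0.93 to -0.05, and neither passed (limma adjusted p = 0.291 and 0.293). Without NFAT1 shRNA 1 the difference of 1419051_at was -0.65 and passed (limma adjusted p = 0.0414). This was the 1 call among the 24 probe sets in that setting, where 12.9% of all probe sets were called, and the 2 Ovol1 probe sets are annotated to the same gene, so they are not independent. Without control 3 the limma adjusted p of both was 0.545, and 0 of all probe sets passed.

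Esrp1 and Grhl2 were bright on 1 probe set each and did not pass the test. Esrp1, which encodes the RNA-binding protein that directs epithelial splicing, had 10.35, 10.74 and 10.80 in NFAT1 shRNA cells, against 10.37, 10.58 and 10.54 in control cells. NFAT1 shRNA 1 was the lowest of the 6 and the other NFAT1 shRNA arrays were the highest (difference 0.13, 95% interval -0.20 to 0.46; limma adjusted p = 0.662). Single arrays moved this difference, to 0.27 without NFAT1 shRNA 1, 0.076 without NFAT1 shRNA 2, 0.045 without NFAT1 shRNA 3 and 0.069 without control 1. Grhl2, a grainyhead factor that activates Cdh1, had 9.85, 10.19 and 9.96 in NFAT1 shRNA cells, against 9.86, 9.93 and 9.93 in control cells on 1427046_at. The groups overlapped, with a difference of 0.09 (95% interval -0.16 to 0.35; limma adjusted p = 0.687); leaving out NFAT1 shRNA 1 gave 0.17, and leaving out NFAT1 shRNA 2 gave -0.0023. The other 3 Grhl2 probe sets read 5.53 to 5.90 in NFAT1 shRNA cells and 5.60 to 5.98 in control cells, just above the array medians, and differed by -0.06 to 0.0047. Which exons these probe sets cover was not examined.

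Cdh1, the repression target that the EMT factors share, was bright, and its groups overlapped. It read 11.80, 12.07 and 12.05 on the NFAT1 shRNA arrays, against 11.99, 12.26 and 12.02 on the control arrays. NFAT1 shRNA 1 was the lowest and control 2 the highest, and between them controls 1 and 3 lay below NFAT1 shRNA 2 and 3. The mean was 11.97 ± 0.15 in NFAT1 shRNA cells and 12.09 ± 0.15 in control cells (SD, n = 3 each), a difference of -0.12 (95% interval -0.40 to 0.16; limma adjusted p = 0.641), or 92.2% of control with bounds of 0.759-fold and 1.12-fold. The difference was -0.03 without NFAT1 shRNA 1, and also without control 2.

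Vim had a higher mean in NFAT1 shRNA cells on all 3 of its probe sets, none of which passed. On 1450641_at it had 12.75, 12.19 and 12.58 in NFAT1 shRNA cells, against 12.29, 11.93 and 12.16 in control cells. NFAT1 shRNA 2 lay among the controls, and NFAT1 shRNA 1 and 3 lay above them. The difference was 0.38 (95% interval -0.02 to 0.77; limma adjusted p = 0.336). The other probe sets, 1456292_a_at and 1438118_x_at, differed by 0.27 and 0.17 (limma adjusted p = 0.338 and 0.465), and NFAT1 shRNA 2 was again the lowest of its group on both. The name of 1438118_x_at marks possible cross-hybridisation. Both were among those dropped in the setting without cross-hybridising probe sets. The 3 probe sets are annotated to the same gene and are not independent of each other.

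**Figure D2:**
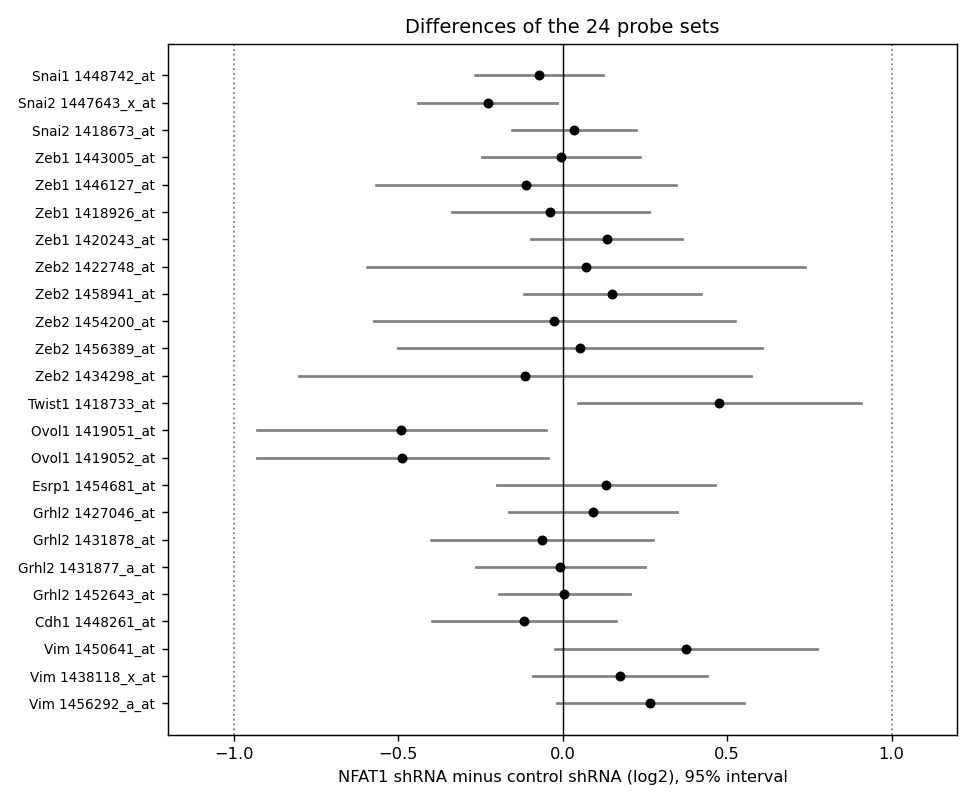
Difference between NFAT1 shRNA and control arrays (horizontal axis, log2, points) with its limma 95% interval (lines) for each of the 24 probe sets; dotted lines mark a 2-fold difference. The intervals of Ovol1 (2 probe sets), Twist1 and Snai2 1447643_x_at leave out 0 before adjustment, and all 24 stay within the dotted lines.

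In all, the groups did not overlap on 3 of the 24 probe sets, 1 higher (Twist1) and 2 lower (Ovol1 1419052_at and Snai2 1447643_x_at), while 20.9% of all probe sets did not overlap. Control 3 read between controls 1 and 2 on 14 of the 24, and among the NFAT1 shRNA arrays number 3 lay in the middle on 13. The same shares over all probe sets, without a limit on signal or spread, were not counted. No member's brightest probe set spanned 1 log2 unit over the 6 arrays, so the rule that would name genes of a similar pattern named none.

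**Figure D3:**
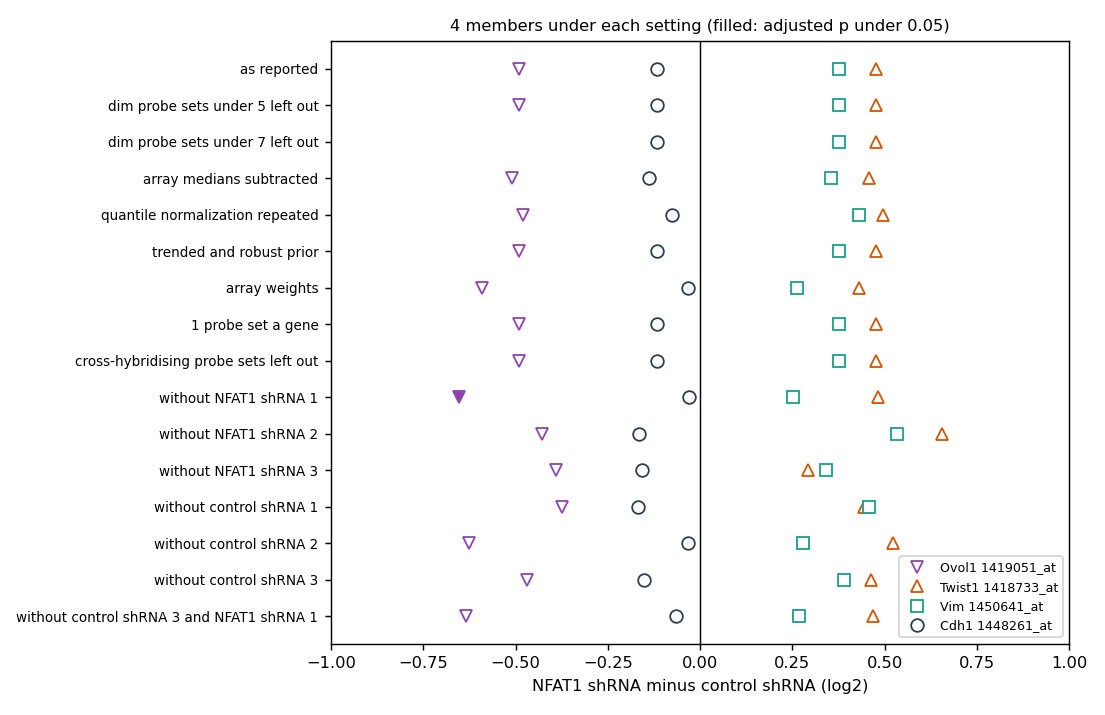
Difference (horizontal axis, log2) of 4 members under the analysis settings other than the replicate block (rows), with Ovol1 missing where probe sets under 7 were left out; filled symbols have an adjusted p under 0.05. Cdh1 stays between -0.17 and -0.03, Twist1 and Vim stay above 0 and Ovol1 below 0, with 1 filled symbol, for Ovol1 without NFAT1 shRNA 1.

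Other genes of the EMT programme were counted in 7 lists, with the brightest probe set of each gene. Of 143 genes besides the members, 136 were measured. None changed with limma, where 0.302% of all genes did, and 30 had an unadjusted p under 0.05 (12 higher and 18 lower), or 22.1%, against 17.5% of all genes. The groups did not overlap for 32 of the 136 (23.5%), 16 in each direction, against 22.8% of all genes. The median difference over the 136 genes was 0.042 and that over all genes 0.043. With array weights 11 of the 136 were called (8.09%, against 6.31% of all genes), and without NFAT1 shRNA 1 there were 26 (19.1%, against 15.8% of all genes). The array weights were 5.01 for control 3, which read between controls 1 and 2, 0.37 for NFAT1 shRNA 1 and 0.60 to 1.15 for the other arrays. Calls with array weights thus lean on control 3. Since none passed, the genes named from each list below are the 2 with the smallest unadjusted p in each direction. Of these, Hmga2, Tcf4, Nectin3, Axl, Postn, Mmp3, Krt14 and Lmnb1 passed in both of those settings, Ajuba with array weights, and Grhl1, Gata3, Tfap2c, Crb3, Ctnna1, Gsk3b and Btrc without NFAT1 shRNA 1. None of them passed without control 3, where the smallest limma adjusted p among them was that of Axl, 0.392. As 0 of all probe sets passed in that setting, it does not set these genes apart.

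Of 16 other EMT transcription factors, 0 changed with limma, 3 had an unadjusted p under 0.05 with a higher mean and 2 with a lower mean, and the median difference was 0.10. That median was 0.051 without NFAT1 shRNA 1, 0.056 without NFAT1 shRNA 3 and 0.049 without control 2. Hmga2, a chromatin protein that induces Snai1 in other epithelial cells, read 11.44, 11.17 and 11.06 on the NFAT1 shRNA arrays, against 10.58, 10.23 and 10.40 on the control arrays. All NFAT1 shRNA values were above all control values, and all 4 Hmga2 probe sets had a higher mean (difference 0.82, 95% interval 0.50 to 1.15; limma adjusted p = 0.0870). Hmga2 passed with array weights (limma adjusted p = 0.0227) and without NFAT1 shRNA 1 (0.0191). Its limma adjusted p was 0.414 without control 3, where 0 of all probe sets passed. Tcf4, the gene of the E protein E2-2 that pairs with TWIST1, differed by 0.68, with all 6 probe sets higher (limma adjusted p = 0.243). Id1, an inhibitor of E proteins, differed by -0.74 and Snai3, the third SNAIL gene, by -0.60 (limma adjusted p = 0.239 and 0.258).

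Of 17 other epithelial regulators, 0 changed with limma, and at an unadjusted p under 0.05 there were 4 with a higher mean and 1 with a lower mean (median difference 0.15). Esrp2, the paralogue of Esrp1, read 8.55, 8.66 and 8.56 in NFAT1 shRNA cells, against 9.10, 8.80 and 9.07 in control cells. Its groups did not overlap, and its difference of -0.40 (limma adjusted p = 0.195) was of the opposite sign to that of Esrp1; the 2 differences were not tested against each other. Grhl1 differed by -0.46 (limma adjusted p = 0.394), Gata3, a luminal factor of the mammary gland, by 0.37 (limma adjusted p = 0.213) and Tfap2c by 0.38 (limma adjusted p = 0.229). The list's median against the control mean was 0.046, 0.11 and 0.45 on NFAT1 shRNA 1, 2 and 3, and the median difference was 0.045 without NFAT1 shRNA 3.

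The 28 epithelial junction and surface genes, a list that also holds keratin genes, went both ways, 14 with a mean above and 14 with a mean below control. Their median difference was -0.0010, and ran from -0.075 without control 1 to 0.099 without NFAT1 shRNA 1. None changed with limma, and 2 higher and 3 lower had an unadjusted p under 0.05. Mal2, a membrane protein of apical transport, read 7.28, 7.87 and 8.65 on the NFAT1 shRNA arrays, against 9.08, 9.14 and 8.94 on the control arrays. The groups did not overlap, and the NFAT1 shRNA arrays spread widely (difference -1.12, limma adjusted p = 0.212). The desmosomal cadherin gene Dsg2 differed by -0.39, the polarity gene Crb3 by 0.52 and the keratin gene Krt18 by 0.27 (limma adjusted p = 0.279, 0.299 and 0.256). The median of this list was -0.32 on NFAT1 shRNA 1, and 0.17 and 0.09 on NFAT1 shRNA 2 and 3, against -0.09, 0.13 and -0.0050 on controls 1 to 3. Of 15 genes of the cadherin-catenin complex and its partners, 0 changed with limma, and 1 higher and 3 lower had an unadjusted p under 0.05 (median difference 0.042). Nectin3, a nectin of adherens junctions, read 7.84, 6.95 and 7.22 in NFAT1 shRNA cells, against 8.61, 8.30 and 8.34 in control cells. All 6 Nectin3 probe sets had a lower mean, and the groups did not overlap on this one (difference -1.08, limma adjusted p = 0.142). Ajuba, a LIM protein that binds SNAIL proteins, differed by -0.82, and the catenin genes Ctnna1 and Ctnnb1 by 0.27 and 0.21 (limma adjusted p = 0.234, 0.313 and 0.346). The 4 Ctnna1 probe sets disagreed, with 2 higher and 2 lower.

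Mesenchymal genes went both ways. Of 27 measured, 14 had a higher and 13 a lower mean (median difference 0.0093). On every array 12 lay below the array median and 13 above it. None changed with limma, and 2 higher and 5 lower had an unadjusted p under 0.05. Axl, a receptor tyrosine kinase often raised in EMT, read 10.14, 9.43 and 9.90 on the NFAT1 shRNA arrays, against 11.12, 10.91 and 11.07 on the control arrays. All NFAT1 shRNA values lay below all control values, and the difference was -1.21 (95% interval -1.64 to -0.78; limma adjusted p = 0.0732), the smallest adjusted p among the genes named from the lists. The limma adjusted p of Axl was 0.0120 with array weights and 0.00761 without NFAT1 shRNA 1. Postn, which encodes the matrix protein periostin, had 5.69, 5.63 and 7.75 in NFAT1 shRNA cells, against 9.27, 8.75 and 9.05 in control cells. NFAT1 shRNA 3 was far above the other NFAT1 shRNA arrays, and the difference of -2.66 did not pass (limma adjusted p = 0.139). The matrix protease gene Mmp3 differed in the other direction, by 1.30, as did Fgfr1, by 0.49 (limma adjusted p = 0.142 and 0.189).

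Of 12 partners of vimentin and other intermediate filament genes, 0 changed with limma, and 2, both lower, had an unadjusted p under 0.05 (median difference -0.07). Krt14, a basal keratin, read 9.38, 7.46 and 8.40 on the NFAT1 shRNA arrays, against 10.67, 10.38 and 10.56 on the control arrays. The groups did not overlap, and the NFAT1 shRNA arrays differed among themselves by more than the difference between some pairs across groups (difference -2.12, limma adjusted p = 0.137). The nuclear lamin gene Lmnb1 differed by -0.64, Des by 0.21 and Prph by 0.23 (limma adjusted p = 0.107, 0.372 and 0.336). Of 21 corepressors and stability regulators of the SNAIL, ZEB and TWIST proteins, 0 changed with limma, and 2, both lower, had an unadjusted p under 0.05 (median difference -0.02). These were Fbxo45 (-0.23), a ubiquitin ligase subunit that targets EMT factors, and the kinase gene Lats2 (-0.31). Btrc and Gsk3b, whose products mark SNAIL1 for degradation, differed by 0.47 and 0.32 (limma adjusted p = 0.324 and 0.374).

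**Figure D4:**
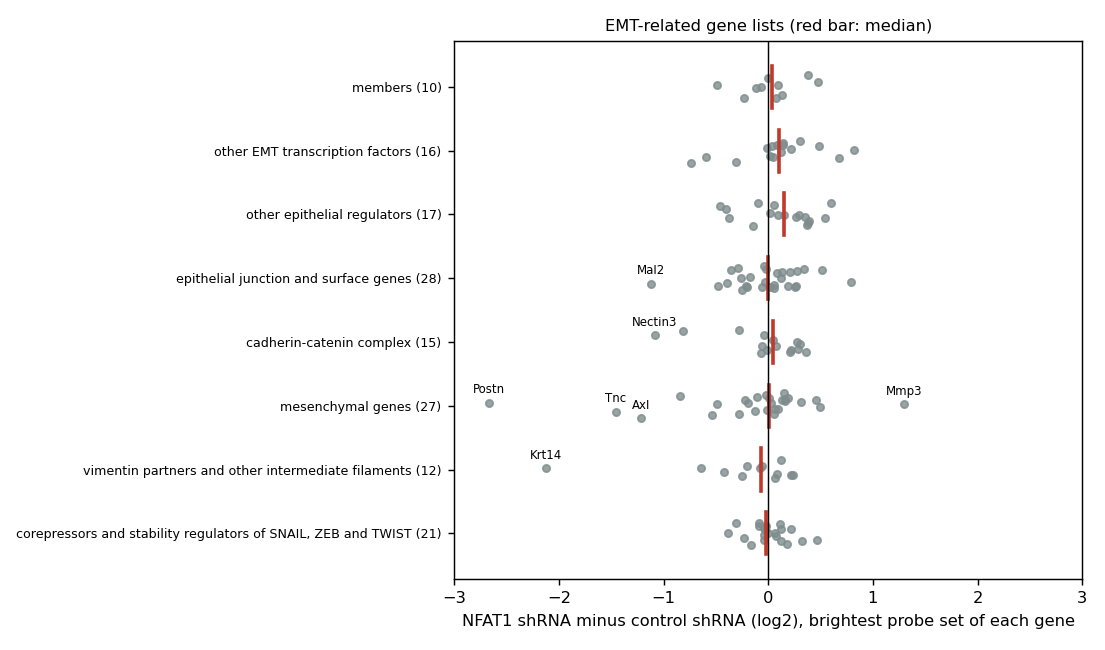
Difference (horizontal axis, log2) of the brightest probe set of each measured gene, in 1 row for the 10 members and 1 for each of the 7 other lists, with the number of genes in brackets; red bars are medians and vertical scatter has no meaning. Genes with a difference of at least 1 in size are labelled, and with all 6 arrays every median lies between -0.07 and 0.15.

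The cells were checked against markers of their type and of others. All 5 markers of the mammary carcinoma line lay above the array median on every array, among them Epcam, at 12.43 ± 0.33 in NFAT1 shRNA cells and 12.22 ± 0.15 in control cells (SD, n = 3 each). Of 8 fibroblast markers 7, of 6 measured leukocyte markers 3 and of 5 endothelial markers 4 lay below it on every array, including Ptprc and Pecam1. The exceptions above it on every array were Pdgfra, Cd68, Csf1r and Kdr. In these lists of markers 0 genes changed with limma, and Krt18 (0.27) and Kdr (0.31) had an unadjusted p under 0.05. All 8 fibroblast markers and all 5 endothelial markers had a higher mean in NFAT1 shRNA cells, with median differences of 0.13 and 0.11. The median difference over all genes was 0.043, and most of these markers had the low signals at which RMA compresses differences. The fibroblast median was 0.083 without control 2, 0.081 without control 3 and 0.044 with the mean over all probe sets of a gene, and the endothelial median was 0.072 without NFAT1 shRNA 1, 0.18 without NFAT1 shRNA 3 and 0.044 without control 2. The summed linear signal of the fibroblast list ran from 280.2 to 506 on the NFAT1 shRNA arrays and from 229.7 to 389 on the control arrays, and that of the endothelial list from 110.8 to 132.7 and from 102.8 to 111.5. That of the leukocyte list ran from 282 to 813 on the NFAT1 shRNA arrays and from 413 to 545 on the control arrays. The part of these cell types in the Vim and Twist1 values was not tested.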

How the data were processed

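RNA of 4T1 cells with NFAT1 shRNA or control shRNA was measured on 6 Affymetrix mouse arrays, and groups and replicate numbers came from the sample titles. The deposited values are log2 signals. The submitters' processing notes name RMA as the authors' tool; its version and the genome build are not given in the sources used here. RMA corrects background, applies quantile normalization and combines the probes of each probe set. Quantile normalization hides a shift shared by most transcripts. Arrays have no read depth, so their number limits the precision.

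Of 45037 probe sets, 34945 had 1 gene symbol in the platform annotation, 932 several and 9160 none here; 34741 were matched to the GRCm38.p6 gene table by gene number, and 0 symbols changed. All probe sets were fitted with lmFit and eBayes of limma 3.58.1 (R 4.3.3), without filter or covariates, 2-sided, with Benjamini-Hochberg adjustment over all of them and 95% intervals before adjustment. The fit was tested on simulated data with independent noise on each array. That test did not cover arrays whose deviations are correlated, as those of these arrays were. For lists, the probe set with the highest mean stood for a gene. Named genes were the 10 members, Nfatc2, and per list up to 4 that passed each way or else the 2 with the smallest unadjusted p. The members and lists were chosen with earlier results of these data known. Alternatives were filters on dim probe sets, other scaling, array weights, another variance prior, a block for the replicate number, 1 probe set a gene, leaving out cross-hybridising probe sets, and leaving out arrays.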

Additional observations from a re-analysis of the deposited data

How the results depend on the processing

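Among the 24 probe sets, the count of changed ones was 0 in every alternative setting tried except without NFAT1 shRNA 1, so leaving out single arrays gave 0 to 1. The count over all probe sets was 2279 with array weights, 0 without control 3 and NFAT1 shRNA 1 together (9273 at an unadjusted p under 0.05 with limma), and 0 to 5794 when single arrays were left out, with 0 without any control array or NFAT1 shRNA 2 (3992 to 5086 at an unadjusted p under 0.05). The arrays of the groups share replicate numbers, and the deviations from the group means correlated at 0.62, 0.51 and 0.05 for numbers 1, 2 and 3. NFAT1 shRNA 1 and control 2 correlated at -0.58, and NFAT1 shRNA 2 and control 1 at -0.52. NFAT1 shRNA 3 correlated best with control 2 (0.27). Control 3 read between controls 1 and 2 on nearly all brighter probe sets that varied, so number 3 cannot decide whether the numbers are pairs. The main fit did not take them as pairs. With the replicate number as a block, 1432 probe sets were changed, 0 of the 24. The smallest limma adjusted p among the 24 was then 0.0563 (Ovol1 1419052_at), with 0.0702 for Ovol1 1419051_at and 0.0859 for Vim 1450641_at. Of the 6 Nfatc2 probe sets, 1 was changed with array weights, 1 with the block, and 0 to 1 without single arrays. The number of the 24 whose groups did not overlap was 4 to 9 without single arrays (16.7% to 37.5%), against 26.8% to 43.5% of all probe sets. The share of the 24 was above that of all probe sets without NFAT1 shRNA 2 (37.5% against 26.8%) and without control 1 (29.2% against 27.8%), and below it without each of the other arrays.

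The sign of a difference turned in 34 combinations of a probe set and a setting, for values that did not pass on either side. With array weights Snai2 1418673_at was -0.0061, Zeb2 1456389_at -0.044, Grhl2 1431878_at 0.082 and Grhl2 1452643_at -0.0049. Without control 3 and NFAT1 shRNA 1 Zeb2 1422748_at was -0.25, Zeb2 1456389_at -0.071 and Grhl2 1452643_at -0.039; the last was -0.015 with array medians subtracted and -0.012 with quantile normalization repeated. When single arrays were left out, Snai2 1418673_at ran from -0.0049 to 0.057. Zeb1 1443005_at ran from -0.062 to 0.066, 1446127_at from -0.31 to 0.085 and 1418926_at from -0.15 to 0.026. Zeb2 1422748_at ran from -0.11 to 0.39, 1454200_at from -0.22 to 0.23, 1456389_at from -0.12 to 0.32 and 1434298_at from -0.43 to 0.20. Grhl2 1427046_at ran from -0.0023 to 0.17, 1431878_at from -0.17 to 0.050, 1431877_a_at from -0.080 to 0.056 and 1452643_at from -0.033 to 0.041. Signs did not turn in any of these settings for Snai1, Snai2 1447643_x_at, Zeb1 1420243_at, Zeb2 1458941_at, Twist1, Ovol1, Esrp1, Cdh1 and Vim. The median differences of other lists also moved when single arrays were left out: from -0.033 to 0.21 for the cadherin-catenin genes, -0.037 to 0.047 for the mesenchymal genes, -0.12 to -0.0015 for the vimentin partners and -0.011 to 0.038 for the corepressors and stability regulators. The cause of these changes was not tested.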
